A study of Mus musculus with 2 samples.

Results

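The genes described here encode subunits of the SET1 complex in mouse embryonic stem cells given an siRNA against Set1a. They are Setd1a, the siRNA target (listed by that symbol and called Set1a in the labels), and Cxxc1, Wdr82, Bod1l, Hcfc1, Wdr5, Rbbp5, Ash2l and Dpy30. These 9 genes were chosen by name, and 13 of the 28430 listed RefSeq transcripts carry their symbols. All 9 were among the 11786 genes at or above 1 RPKM on average over both libraries, called measured genes below. RPKM corrects the number of reads for the length of the transcript and for the size of the library. The comparison asks how lowering SET1A affects expression, and here how far the target and its partner transcripts differed. The first library came from CGR8 cells transfected with Set1a siRNA, and the second from CGR8 cells transfected with a negative control siRNA. CGR8 is an embryonic stem cell line grown here without feeder cells, on gelatin with serum and leukaemia inhibitory factor. Cells of both groups were transfected more than once within 72 hours. Each group held 1 library, so no difference has a replicate check and no p-value is given. The sequence of the siRNA is not given in the sources used here. The related gene Setd1b was not analysed here.

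SET1 complexes place methyl groups on lysine 4 of histone H3, a mark found at active promoters. SETD1A carries the catalytic SET domain. CXXC1, also called CFP1, binds unmethylated CpG dinucleotides and guides the complex to CpG islands, and WDR82 links it to the phosphorylated tail of RNA polymerase II. HCFC1 is a large scaffold that joins chromatin enzymes to transcription factors, and BOD1L works with SETD1A at stalled replication forks. WDR5, RBBP5, ASH2L and DPY30 form the core that SET1 complexes share with the MLL complexes and that activates the methyltransferase. In embryonic stem cells these proteins are studied for their part in self-renewal and in the loading of methylation at promoters.

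Because CXXC1 reads CpG dinucleotides, the promoters of the 3 genes that stood lowest, Setd1a, Wdr82 and Wdr5, are shown with each CG in capitals. Each runs 5′ to 3′ on the strand of its gene, from 250 bases before to 50 bases after the transcription start, as RefSeq gives it on GRCm38.p6. The Setd1a window is chr7:127777139-127777438 on the plus strand, the Wdr82 window chr9:106170679-106170978 on the plus strand, and the Wdr5 window chr2:27514897-27515196 on the plus strand.
Setd1a: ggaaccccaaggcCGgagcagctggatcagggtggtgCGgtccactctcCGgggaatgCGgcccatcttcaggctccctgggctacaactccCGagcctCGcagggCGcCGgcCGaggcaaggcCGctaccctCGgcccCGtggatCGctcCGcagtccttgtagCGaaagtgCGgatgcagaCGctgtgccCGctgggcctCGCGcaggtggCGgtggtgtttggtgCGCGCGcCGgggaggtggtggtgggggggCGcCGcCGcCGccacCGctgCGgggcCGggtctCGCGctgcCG
Wdr82: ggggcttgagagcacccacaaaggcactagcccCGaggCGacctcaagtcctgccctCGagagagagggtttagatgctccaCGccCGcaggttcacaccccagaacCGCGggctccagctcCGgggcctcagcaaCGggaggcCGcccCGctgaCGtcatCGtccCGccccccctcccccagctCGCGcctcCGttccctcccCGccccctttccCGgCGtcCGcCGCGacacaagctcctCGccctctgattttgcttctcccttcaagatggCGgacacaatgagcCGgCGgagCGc
Wdr5: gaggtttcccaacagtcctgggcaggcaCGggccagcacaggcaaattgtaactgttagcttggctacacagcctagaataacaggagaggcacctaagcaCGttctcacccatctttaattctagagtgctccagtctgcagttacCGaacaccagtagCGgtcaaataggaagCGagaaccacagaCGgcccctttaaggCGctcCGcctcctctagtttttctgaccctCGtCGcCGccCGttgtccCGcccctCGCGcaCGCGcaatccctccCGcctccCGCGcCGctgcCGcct

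The Setd1a window held 35 CG dinucleotides, the Wdr82 window 28 and the Wdr5 window 22. The median was 20 over the 11816 promoter windows of measured genes, with quartiles of 12 and 29. The Setd1a promoter was thus CpG-rich: 86.4% of those windows held fewer. That share was 72.0% for Wdr82 and 53.6% for Wdr5. A relation of the CG number to the ratios was not tested. Of the 9 members, 7 had an entry in the promoter table, the exceptions being Cxxc1 and Ash2l. The Bod1l window held 25 CG, the Hcfc1 window 21 and the Rbbp5 window 16.

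Dpy30 had 4 listed starts, whose windows held from 1 to 39 CG. The windows with the fewest and the most CG are shown, because the deposited transcripts of Dpy30 begin at different starts. The start at which NM_024428 begins lies in chr17:74323895-74324194 on the minus strand and held 1 CG. The start nearest to that of NM_001146224, at a distance of 8 nucleotides, lies in chr17:74316162-74316461 on the minus strand and held 39.
Dpy30 at NM_024428: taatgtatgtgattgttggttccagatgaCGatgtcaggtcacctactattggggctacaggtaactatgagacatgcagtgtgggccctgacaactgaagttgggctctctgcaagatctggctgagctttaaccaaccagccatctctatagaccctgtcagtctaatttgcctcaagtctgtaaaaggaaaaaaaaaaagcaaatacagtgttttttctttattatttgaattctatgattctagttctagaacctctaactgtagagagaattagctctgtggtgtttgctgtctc
Dpy30 at NM_001146224: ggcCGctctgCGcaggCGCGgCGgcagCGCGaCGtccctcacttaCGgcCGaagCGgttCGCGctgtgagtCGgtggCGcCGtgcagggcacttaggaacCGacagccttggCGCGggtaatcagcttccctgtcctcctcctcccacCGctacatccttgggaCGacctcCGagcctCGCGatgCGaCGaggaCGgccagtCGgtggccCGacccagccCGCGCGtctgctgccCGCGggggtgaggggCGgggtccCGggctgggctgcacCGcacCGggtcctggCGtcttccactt

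The other Dpy30 windows held 30 and 34 CG. Of the windows of measured genes, 84.9% held fewer CG than the Dpy30 window with 34, and 91.5% fewer than the one with 39. Short motifs were searched on both strands. GGGCGG, the core of the Sp1 site, was in 5 of the 10 windows of the 7 members, namely those of Wdr82, Bod1l, Hcfc1 and Wdr5 and 1 of the 4 of Dpy30, and in 63.4% of the windows of measured genes. CCGGAAG, an ETS-type motif, was in 2 of the 10, those of Bod1l and Hcfc1, and in 18.2% of windows. CCAAT was in 2 of the 10, those of Bod1l and of the CpG-poor start of Dpy30, and in 38.9% of windows. TATAAA, the TATA box, was in none of the member windows and in 7.12% of windows. No match says only that these letters are not in these windows.

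The libraries corresponded to depths of about 6400000 reads for Set1a siRNA and 6650000 for control siRNA, found from the spacing of the lowest values. The embryonic stem cell label was met by the levels of its 8 markers, which ranged from 83.7 to 1692 RPKM in the Set1a siRNA library and from 79.5 to 2004 RPKM in the control siRNA library. Of 8 fibroblast markers, 1 (Thy1) was measured, Col1a2 and Postn were at 0 in both libraries, and the list summed to 6.18 RPKM in the Set1a siRNA library and 3.44 RPKM in the control siRNA library. Of 6 endoderm and trophectoderm markers, 0 were measured, and the list summed to 1.74 RPKM in the Set1a siRNA library and 1.73 RPKM in the control siRNA library. The part of the fibroblast difference in the results below was not tested.

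Setd1a was modestly lower in the Set1a siRNA library. Its only transcript row, NM_178029, a transcript of 5927 nucleotides and 19 exons, was at 11.97 RPKM in the Set1a siRNA library and 14.2 RPKM in the control siRNA library. These values rest on 454 and 558 reads in the same order. The ratio of the RPKM values was 0.846, with a 95% counting interval of 0.745 to 0.959, which lay wholly below 1. Such intervals are of the exact Clopper-Pearson kind, rest on the read numbers and cover counting error only. In bulk RNA, fewer cells with the transcript and less of it per cell cannot be told apart. Of 3344 other genes with 0.5 to 2 times as many control reads, 10.6% had a lower ratio than Setd1a, and the quartiles of their ratios were 0.913 and 1.07. The target was thus below the lower quartile of genes of like read number, but not outside their range.

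**Figure D1:**
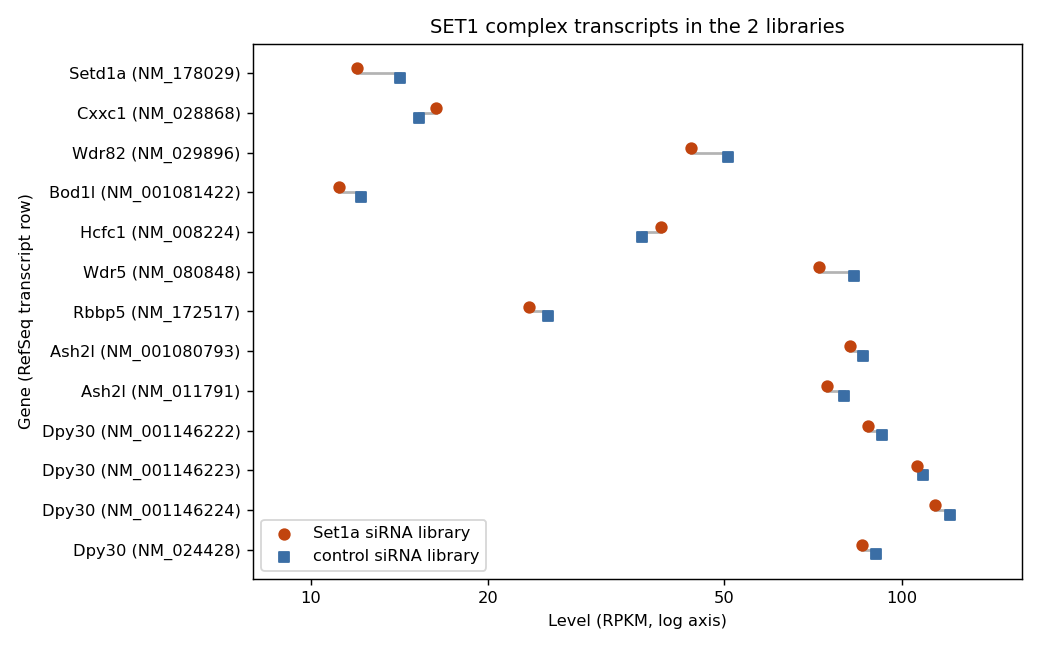
RPKM (log axis) of each of the 13 transcript rows of the 9 genes; red circles are the Set1a siRNA library and blue squares the control siRNA library, 1 library each. Setd1a is at 11.97 and 14.2 RPKM, and the rows of Cxxc1 and Hcfc1 are those with the red point to the right of the blue one.

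Among the subunits that bring the SET1 complex to chromatin, Wdr82 differed about as much as the siRNA target. It was at 44.1 RPKM in the Set1a siRNA library and 50.8 RPKM in the control siRNA library, a ratio of 0.867 (0.798 to 0.941). Cxxc1, the CpG-binding subunit, went the other way, at 16.3 RPKM in the Set1a siRNA library and 15.3 RPKM in the control siRNA library, but its ratio of 1.07 had an interval of 0.901 to 1.27 that included 1. Cxxc1 had the fewest reads of the 9 genes, 274 in the Set1a siRNA library and 266 in the control siRNA library, and so the widest interval.

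Of the large partner proteins, Hcfc1 was the only member whose interval lay above 1. It was at 39.2 RPKM in the Set1a siRNA library and 36.3 RPKM in the control siRNA library, a ratio of 1.08 (1.01 to 1.15) from 2040 and 1965 reads in the same order. Bod1l, the longest transcript at 10540 nucleotides, was at 11.2 RPKM in the Set1a siRNA library and 12.2 RPKM in the control siRNA library. Its ratio was 0.917 (0.830 to 1.01), an interval that just included 1.

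All 4 core subunits were lower in the Set1a siRNA library, and the interval lay below 1 for Wdr5 alone. Wdr5, a WD40 protein that bridges the methyltransferase and RBBP5, was at 72.6 RPKM in the Set1a siRNA library and 83.0 RPKM in the control siRNA library, a ratio of 0.874 (0.812 to 0.941). Rbbp5, which together with ASH2L contacts the SET domain, was at 23.4 RPKM in the Set1a siRNA library and 25.2 RPKM in the control siRNA library, a ratio of 0.928 (0.813 to 1.06). The levels of Ash2l and Dpy30 are given by transcript, since the files list several for each.

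Ash2l had 2 transcript rows, and both were slightly lower. NM_011791 was at 74.7 RPKM in the Set1a siRNA library and 79.8 RPKM in the control siRNA library, a ratio of 0.936 (0.874 to 1.002). NM_001080793 was at 81.9 RPKM in the Set1a siRNA library and 85.9 RPKM in the control siRNA library, a ratio of 0.953 (0.882 to 1.031). The rows share 2221 exonic nucleotides, 67.2% of NM_011791 and nearly all of NM_001080793, so they are not separate measurements.

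Dpy30, which binds ASH2L as a small dimer, had 4 rows, all lower in the Set1a siRNA library and all with intervals that included 1. NM_001146224, the row with the most reads, was at 113.8 RPKM in the Set1a siRNA library and 120.8 RPKM in the control siRNA library, a ratio of 0.942 (0.834 to 1.06). NM_024428, which begins at the CpG-poor start, was at 85.8 RPKM in the Set1a siRNA library and 90.4 RPKM in the control siRNA library, a ratio of 0.948 (0.830 to 1.08). The ratio was 0.975 for NM_001146223 and 0.945 for NM_001146222. The ratios of these rows thus lay within each other's intervals. As 433 nucleotides are common to all 4 rows and the counting of shared reads is not known, a row does not measure the use of its own start.

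**Figure D2:**
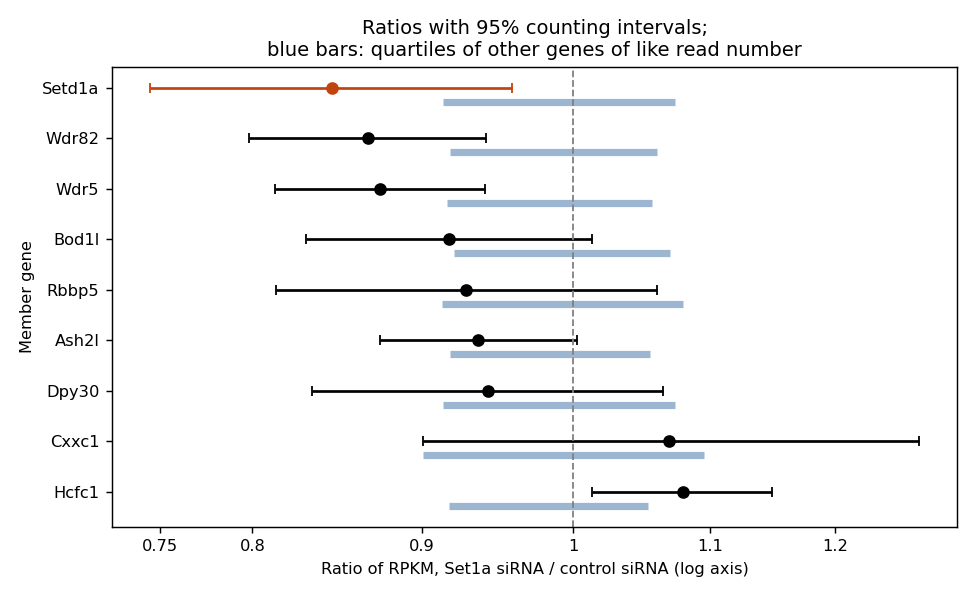
Ratio of RPKM, Set1a siRNA over control siRNA (log axis), for each of the 9 genes by its row with the most reads; points are ratios, bars 95% counting intervals, and blue bars the quartiles of the ratios of other genes with 0.5 to 2 times as many control reads. Setd1a (0.846), Wdr82 (0.867) and Wdr5 (0.874) lie below their blue bars with intervals below 1, and Hcfc1 (1.08) lies above its blue bar with an interval above 1. Bod1l (0.917) lies just below the lower end of its blue bar (0.920), with an interval that includes 1.

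Over the 9 genes, 7 were lower and 2 higher in the Set1a siRNA library, where 48.8% of all 11786 genes were lower and 51.2% higher. These counts and the medians are on the log2(RPKM + 1) scale, Set1a siRNA minus control siRNA, on which changes of low genes come out too small. The median log2 fold of the 9 genes was -0.10, and without Setd1a it was -0.10 over 8 genes, against 0.0066 over all genes, whose quartiles were -0.14 and 0.15. At least 1.1-fold lower were 3 members, Setd1a at -0.22, Wdr82 at -0.20 and Wdr5 at -0.19, against 25.2% of all genes. None of the 9 was at least 1.1-fold higher, against 27.3% of all genes, and none was past 2-fold either way, against 1.17%. The counting interval lay below 1 for 3 of 9 members, against 14.0% of the 7852 genes that have an interval and average 5 RPKM or more, as all 9 members do. It lay above 1 for 1 of 9 members, against 13.3% of those genes. With 9 genes these shares are coarse, and the folds of all members lay inside the spread of the other genes.

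**Figure D3:**
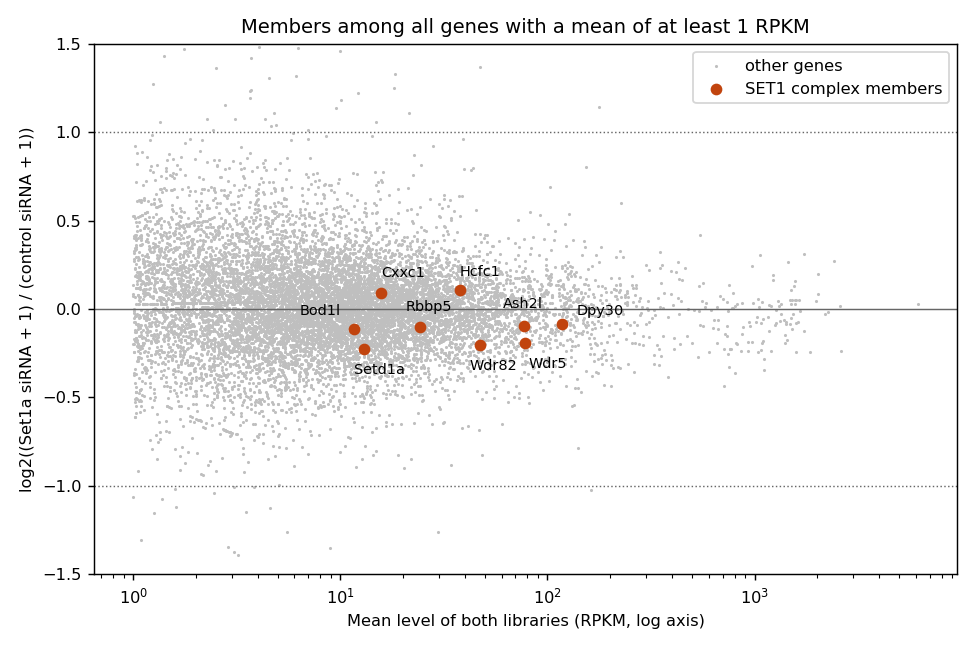
Mean level of both libraries (RPKM, log axis) against the log2 fold of Set1a siRNA over control siRNA with 1 RPKM added, for 11786 genes in grey and the 9 members in red; dotted lines mark 2-fold, and 88 genes lie outside the axis. The members lie between -0.22 and 0.11, within the cloud of other genes.

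The members can also be placed among genes of comparable level. Among the 7922 genes that average 5 RPKM or more, 13.1% stood below Setd1a in log2 fold, 15.2% below Wdr82 and 16.6% below Wdr5. For Bod1l, Rbbp5, Ash2l and Dpy30 the shares ran from 27.5% to 32.6%. They were 69.1% for Cxxc1 and 72.1% for Hcfc1. The siRNA target was the lowest of the 9, with Wdr82 and Wdr5 close to it.

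Whether Setd1a differed more than its partners was compared within libraries, which needs no scaling. The ratio of Setd1a was divided by that of each other member, 8 pairs in all, with exact conditional intervals on the 4 read numbers. Against Wdr82 the quotient was 0.976 (0.838 to 1.13) and against Wdr5 it was 0.967 (0.835 to 1.12). Both intervals reach well to either side of 1. The quotient was 0.922 against Bod1l, 0.911 against Rbbp5, 0.903 against Ash2l and 0.897 against Dpy30, and each interval included 1. The interval excluded 1 for 2 pairs, Hcfc1 with 0.784 (0.681 to 0.902) and Cxxc1 with 0.791 (0.637 to 0.979). With the intervals widened for 8 pairs, that of Hcfc1 was 0.644 to 0.953 and that of Cxxc1, 0.586 to 1.06, included 1. These intervals do not show that Setd1a and the other 6 members differed alike.

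Per length, Setd1a was among the least abundant of the 9 transcripts in both libraries. In the Set1a siRNA library the order of levels was Dpy30, Ash2l, Wdr5, Wdr82, Hcfc1, Rbbp5, Cxxc1, Setd1a and Bod1l. Neighbours whose Poisson intervals overlapped there were Ash2l with Wdr5, and Setd1a with Bod1l. The order in the control siRNA library was the same but for Wdr5 ahead of Ash2l, and the overlapping neighbours were Wdr5 with Ash2l, and Cxxc1 with Setd1a. Setd1a was at 16.5% of the Wdr5 level in the Set1a siRNA library and 17.1% in the control siRNA library. It was at 73.3% of the Cxxc1 level in the Set1a siRNA library and 92.7% in the control siRNA library, and at 30.6% and 39.0% of the Hcfc1 level in the same order. The summed level of the 4 core subunits was 284 RPKM in the Set1a siRNA library and 309 RPKM in the control siRNA library. Each core transcript was above that of the catalytic subunit in both.

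The 5 genes nearest to Setd1a in log2(RPKM + 1) over the 2 libraries, by Euclidean distance, were Cby1, Atxn3, Nek9, Irak1 and Slmap. Their ratios ran from 0.844 for Slmap to 0.864 for Nek9. With 2 libraries, likeness is only a like level and a like ratio.

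Some values could hold reads of other genes. The gene Gm49388 shares 3523 exonic nucleotides on the same strand with Setd1a, 59.4% of its transcript, and no listed transcript carries that symbol, so Setd1a reads there cannot be told from those of Gm49388. A processed pseudogene, Gm11977, is 96.5% identical to Rbbp5 over 1007 nucleotides, Gm13462 is 90.3% identical to Ash2l over 974, and Gm2059 is 91.8% identical to Dpy30 over 291. None of these pseudogenes is among the listed symbols. How the authors placed reads that match several loci is not given in the sources used here, and the values of these members are uncertain to that extent. No such match at 90% identity was found for Cxxc1, Wdr82, Bod1l, Hcfc1 or Wdr5.

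Genes that work beside the SET1 complex were described from 7 lists, 63 measured genes in all. None passed 2-fold, 33 were lower and 30 higher, and 7 were at least 1.1-fold lower, against 25.2% of all genes, and 12 at least 1.1-fold higher, against 27.3%. Both counts are below those shares of all genes. The median log2 fold of the 63 was -0.01, nearer to that of all genes than to the -0.10 of the SET1 members. No test was made between these lists and the members.

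The MLL list holds the methyltransferases Kmt2a, Kmt2b, Kmt2c and Kmt2d and partners that share the WDR5, RBBP5, ASH2L and DPY30 core. Here 9 of 10 genes were lower, against 48.8% of all genes, and the median was -0.07. Kmt2a to Kmt2d themselves lay between -0.08 and -0.02. The lowest was Ncoa6, a coactivator subunit, at 11.4 RPKM in the Set1a siRNA library and 12.7 RPKM in the control siRNA library, a ratio of 0.901 (0.798 to 1.02). The highest was Men1, which encodes menin, at 12.9 RPKM in the Set1a siRNA library and 9.83 RPKM in the control siRNA library, a ratio of 1.31 (1.08 to 1.59). Men1 was the 1 gene of this list that was higher, and the 1 whose interval lay above 1. Psip1, with a ratio of 0.913 (0.843 to 0.989), was the 1 whose interval lay below 1. Among genes averaging 5 RPKM or more, 13.3% had an interval above 1 and 14.0% one below 1.

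Of the complexes that share HCFC1 or WDR5, 8 of 11 genes were lower, against 48.8% of all genes, with a median of -0.03. They ranged from Kansl1, a scaffold of the NSL acetyltransferase complex, with a ratio of 0.875 (0.766 to 0.9998), to Kansl3 with 1.07 (0.902 to 1.26). Of 6 other partners of WDR82, 5 were higher, against 51.2% of all genes, with a median of 0.04. The catalytic subunit Ppp1cb of protein phosphatase PP1 was the lowest, at 55.6 RPKM in the Set1a siRNA library and 63.2 RPKM in the control siRNA library, a ratio of 0.879 (0.829 to 0.931). Tox4, which joins WDR82 in the PP1 complex, was the highest, with a ratio of 1.102 (0.975 to 1.24). Wdr82 itself, with 0.867, was below all 6. Kansl1 and Ppp1cb were the only genes of their lists whose interval lay below 1, against 14.0% of genes averaging 5 RPKM or more.

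The PAF1 complex and the enzymes that ubiquitylate histone H2B act upstream of SET1 methylation, as known from yeast. There, 8 of 11 genes were higher, against 51.2% of all genes, with a median of 0.07. The range ran from Wac, a partner of the H2B ubiquitin ligase, with a ratio of 0.902 (0.783 to 1.04), to Wdr61, a PAF1 complex subunit, with 1.26 (1.06 to 1.49). The interval lay above 1 for 2 of the 11, Wdr61 and Cdc73, against 13.3% of genes averaging 5 RPKM or more. Cdc73 had a ratio of 1.12 (1.04 to 1.21). The 5 demethylases of the mark had a median of 0.04, from Kdm1a with 0.962 (0.879 to 1.05) to Kdm5a with 1.096 (0.973 to 1.24) among those averaging 5 RPKM or more. Kdm1b, at a lower level and chosen after its values were seen, was at 4.07 RPKM in the Set1a siRNA library and 3.02 RPKM in the control siRNA library, a ratio of 1.35 (1.03 to 1.77), and was the 1 demethylase whose interval excluded 1. Of genes averaging 5 RPKM or more, 13.3% had an interval above 1 and 14.0% one below 1. No such share was computed at the level of Kdm1b.

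Of 13 readers of H3K4 methylation, 6 were higher and 7 lower, with a median of -0.01. Ing5 had a ratio of 0.899 (0.782 to 1.033) and Ing4 of 1.17 (0.914 to 1.51), the ends of the range at an average of 5 RPKM or more, and both intervals included 1. Below that level, Phf2, chosen after its values were seen, was at 1.81 RPKM in the Set1a siRNA library and 1.09 RPKM in the control siRNA library, a ratio of 1.66 (1.103 to 2.53), and was the 1 reader whose interval excluded 1. Intervals lay above 1 for 13.3% and below 1 for 14.0% of genes averaging 5 RPKM or more. No such share was computed at the level of Phf2. The list of other genes that carry a CXXC domain as Cxxc1 does leaves out Kmt2a and Kmt2b, which are in the MLL list. Of its 7 measured genes, 4 were higher and 3 lower, with a median of 0.06. The counting interval lay above 1 for 3 of them, Kdm2a, Kdm2b and Mbd1, and below 1 for 2, Dnmt1 and Tet1. All 7 average 5 RPKM or more, the level for which the 13.3% and 14.0% were computed. With 7 genes such shares are coarse. Kdm2a had a ratio of 1.17 (1.04 to 1.31) and Dnmt1 of 0.902 (0.847 to 0.959). Kdm2b, which recruits a Polycomb complex to CpG islands, was at 22.3 RPKM in the Set1a siRNA library and 15.7 RPKM in the control siRNA library, a ratio of 1.42 (1.27 to 1.59). Tet1, which oxidises methylated cytosine, was at 47.4 RPKM in the Set1a siRNA library and 53.1 RPKM in the control siRNA library, a ratio of 0.893 (0.857 to 0.931). Tet3 and Cxxc4 averaged under 1 RPKM and were not measured. Kdm2b had the highest log2 fold of all 63 genes, 0.48.

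**Figure D4:**
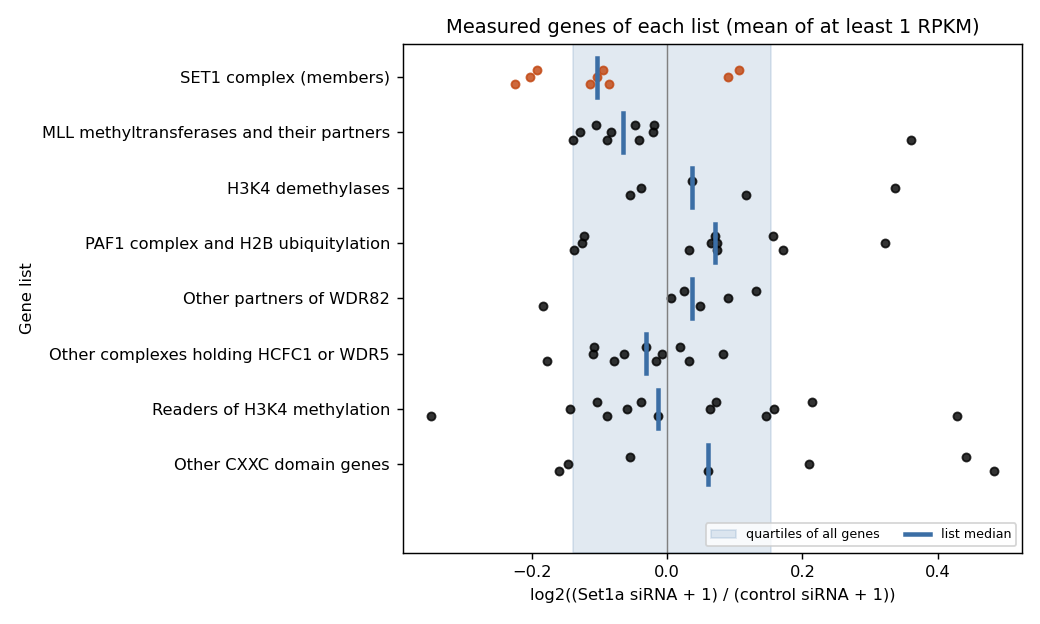
log2 fold of Set1a siRNA over control siRNA with 1 RPKM added, for each measured gene of the SET1 members (red) and of the 7 related lists (black); vertical bars are list medians, and the shaded band spans the quartiles of all genes, -0.14 to 0.15. The median is lowest for the SET1 members, at -0.10, followed by the MLL list at -0.07, and every median lies in the band.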

How the data were processed

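RNA of 2 libraries of CGR8 cells, 1 per group, was sequenced, and the label of the transfection gave each group. The deposited files hold 1 value per RefSeq transcript with no header; RPKM was inferred as the unit, since the deposited value times transcript length moves in whole steps. The submitters' processing notes name genome build mm9 and the tools SAMtools 0.1.16, TopHat2 2.0.12, TopHat and CASAVA. How reads were counted, whether by strand, and what was done with reads of several loci is not given in the sources used here.

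Symbols came from GENCODE M21 and RefSeq's genes on GRCm38.p6, which matched 27957 of 28430 transcripts (98.3%). As these are of another build than mm9, they served for names, transcript lengths, gene order and promoter sequences. Depth was the value that brought most low values near whole reads. Of values of about 1 to 5 reads, 74.0% in the Set1a siRNA library and 74.9% in the control siRNA library then lay within 0.1 of a whole number, so read numbers are approximate. The sum of RPKM times length came to 100.5% of the depth in the Set1a siRNA library and 100.4% in the control siRNA library. For each gene the transcript row with the most reads was used, and a floor of 1 RPKM on the mean left 11786 genes, 11663 of them with a length and hence an interval. Near-identical transcripts were sought with BLAST 2.17.0 at 90% identity over at least 20% of the member or 50% of the other transcript. Python 3.11.15 and scipy 1.17.1 were used, and the depth and interval steps were checked on simulated counts.

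The members and lists were chosen with earlier results of these data known. Named were all members, the highest and lowest of each list at a mean of at least 5 RPKM, any list gene past 2-fold, and the 5 genes nearest to Setd1a. Settings varied were the pseudocount, the floor, the scaling and the transcript chosen per gene.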

Additional observations from a re-analysis of the deposited data

How the results depend on the processing

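The log2 fold of Setd1a, -0.22, ran from -0.24 to -0.17 over 6 other settings, and the median of the 9 members, -0.10, from -0.11 to -0.09 over 8. The number of lower members was 7 in all 8. These settings could hardly have turned a direction: the scaling factors were 0.995 and 1.001. Setd1a has 1 transcript row, so the choice of transcript could not move its value. All 9 members average 5 RPKM or more, so the floor could not move their median or count. In the same 6 settings, added for the other 8 members after the data were seen, none changed sign. Over all genes, 90 were past 2-fold upward and 48 downward. A pseudocount of 0.1 gave 177 and 89, and one of 5 gave 37 and 10. A floor of 5 RPKM gave 34 and 8, and leaving out the floor gave 131 and 77. With the floor of 5 RPKM fewer genes are tested, and 1893 in place of 2973 were at least 1.1-fold lower. Without a floor 3992 were. By its definition, a larger pseudocount shrinks the log2 folds, most of all at low levels, and leaving out the floor adds genes below it. Summing transcript rows counts shared reads of Ash2l and Dpy30 more than once. No paired analysis was possible because there was 1 library per group, and for the same reason no replicate could be left out. Depth limits Cxxc1 most, as its 274 and 266 reads in the Set1a siRNA and control siRNA libraries leave an interval of 0.901 to 1.27.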

Other observations

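Genes next to the members on the chromosome, by the order in the GRCm38.p6 gene table, were looked at after the data were seen. On either side of Setd1a, Orai3 had a ratio of 0.797 (0.561 to 1.13) from 60 reads in the Set1a siRNA library and 78 in the control siRNA library, and Hsd3b7 had 0.990 (0.698 to 1.41). Fbxl19, the next gene beyond Orai3 and itself a CXXC domain gene, was at 23.9 RPKM in the Set1a siRNA library and 24.8 RPKM in the control siRNA library, a ratio of 0.961 (0.850 to 1.08). All 3 intervals included 1. Those of Orai3 and Hsd3b7 also included the Setd1a ratio of 0.846, and that of Fbxl19 did not.

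Next to Hcfc1, Renbp, which encodes a renin-binding protein, was at 27.6 RPKM in the Set1a siRNA library and 38.2 RPKM in the control siRNA library, a ratio of 0.721 (0.610 to 0.848), while Hcfc1 had 1.08. The pair was chosen after its values were seen. Near Cxxc1, Mbd1, another CXXC domain gene, was at 6.24 RPKM in the Set1a siRNA library and 4.33 RPKM in the control siRNA library, a ratio of 1.44 (1.07 to 1.93). Mbd1 was likewise chosen after its values were seen. Ska1, adjacent to Cxxc1, had a ratio of 1.09 (0.818 to 1.46). Star, next to Ash2l, was at 2.68 RPKM in the Set1a siRNA library and 3.71 RPKM in the control siRNA library, a ratio of 0.722 (0.520 to 0.984). Dstyk, near Rbbp5, was at 4.07 and 5.11 RPKM in the same order, a ratio of 0.798 (0.649 to 0.985). Of genes averaging 5 RPKM or more, 13.3% had an interval above 1 and 14.0% one below 1. Star and Dstyk average less, and no such share was computed at their level. The remaining neighbours with a ratio had intervals that included 1. The microRNA gene Mirlet7g lies within Wdr82 and was listed at 0 in both libraries.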
